A study of Homo sapiens with 8 samples.

Results

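The peaks of succinylated lysine 23 of histone H3 (H3K23su) and acetylated lysine 27 of histone H3 (H3K27ac) were examined around 10 genes known as Wnt targets or as markers of colon stem cells, out of 20134 protein-coding genes of GENCODE 44 on hg19. The genes were LGR5, ASCL2, AXIN2, RNF43, ZNRF3, MYC, EPHB2, SOX9, CD44 and PROM1. For each of them, every peak within 2 kb of the transcription start site (TSS), in the gene body and within 100 kb on either side was taken from 8 peak lists. For MYC, the interval from 128.2 to 128.8 Mb of chromosome 8 was examined as well. The lists came from CUT&Tag, in which a transposase tethered to an antibody cuts and tags the DNA around the modified histone. The cells were HCT15, an established human colorectal cancer line, in a parental form (HCT15-Pa, labelled DMSO) and a form resistant to 5-fluorouracil, an inhibitor of thymidylate synthase (HCT15-FR, labelled 5-FU at 20 μg/mL). Each line had 2 libraries per mark. The resistant cells were kept in medium free of the drug for some days before use. The comparison therefore concerned 1 resistant line against 1 parental line, and what long exposure to the drug selected cannot be told apart from any other difference between these cultures.

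In Wnt signaling, a ligand bound to Frizzled and LRP receptors stops the destruction of β-catenin, which enters the nucleus and joins TCF/LEF factors at the enhancers of target genes. The stem cells at the base of the colon crypt depend on this signal, and many colorectal cancers carry lesions that keep it switched on. Several target genes act as brakes on the pathway itself, so marks at such genes mix its output with its feedback.

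The lists held 65364 to 68365 H3K23su peaks and 70600 to 76676 H3K27ac peaks per library. The HCT15-FR lists covered more of the genome than the HCT15-Pa lists, with 39.4 and 40.0 against 33.0 and 33.5 Mb for H3K23su, and 46.3 and 46.6 against 38.8 and 39.5 Mb for H3K27ac. No read counts came with the lists, so the depth behind a peak is unknown, and an absent peak means only that none passed the caller's threshold in that library. Of 10 colorectal epithelial markers, 7 had TSS peaks of both marks in every library, EPCAM, CDH1, KRT8, KRT18, KRT19, VIL1 and LGALS4. CDX1 had a TSS peak in only 2 libraries of each mark. CDX2 had H3K23su in 1 library and CDH17 in 2, and both had H3K27ac in all 4. Of 11 markers of other cell types, 9 had no H3K23su peak and 8 had no H3K27ac peak in any library. Among the exceptions in H3K27ac, SYP had a peak in 4 libraries and CDH5 in 1. Nothing in the labels says that the 2 libraries of a line came from separate cultures, so p-values measure the spread between libraries, which may be technical.

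Touching or overlapping peaks of the 4 libraries of a mark were merged into regions. A region was called FR-only or Pa-only when it held a peak in both libraries of that line and in neither of the other, and shared when all 4 libraries had one. Of 9 regions that were FR-only in both marks, 6 are printed here, 1 for each gene that had any. Of 3 regions that were Pa-only in both marks, the one at the CD44 TSS is added, and those of AXIN2 and ZNRF3 are not printed. The 200 bases at the middle of the H3K23su region are shown. Capitals mark matches to the TCF/LEF motif ATCAAAG or the AP-1 motif TGACTCA on either strand. The LGR5 region lay in an intron of the neighboring gene ZFC3H1, 187 kb past the LGR5 TSS, the AXIN2 region 23.7 kb upstream in an intron of ENSG00000266076, and the ZNRF3 region 74.8 kb upstream in an intron of ENSG00000226471, only 8.23 kb from the TSS of XBP1. The EPHB2 and PROM1 regions were intergenic, 13.0 and 45.4 kb upstream, the SOX9 region was in an intron of ENSG00000288605, 14.1 kb downstream, and the CD44 region was in an intron, 0.546 kb past its TSS. The 250 bases before the CD44 TSS, from RefSeq on GRCh38.p14, are added because the H3K27ac region there reached upstream of the start. RefSeq promoter entries were found for 4 of the 10 genes, CD44, EPHB2, PROM1 and RNF43.
LGR5, FR-only, hg19 chr12:72020585-72020784, plus strand: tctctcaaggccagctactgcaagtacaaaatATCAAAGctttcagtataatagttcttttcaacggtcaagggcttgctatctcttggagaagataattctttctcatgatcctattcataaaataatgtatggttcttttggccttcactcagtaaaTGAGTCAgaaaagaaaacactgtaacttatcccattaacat
AXIN2, FR-only, hg19 chr17:63581405-63581604, plus strand: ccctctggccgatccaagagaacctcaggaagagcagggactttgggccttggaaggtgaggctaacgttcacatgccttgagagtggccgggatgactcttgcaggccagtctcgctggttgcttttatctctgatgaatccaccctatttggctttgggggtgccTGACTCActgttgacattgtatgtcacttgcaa
ZNRF3, FR-only, hg19 chr22:29204691-29204890, plus strand: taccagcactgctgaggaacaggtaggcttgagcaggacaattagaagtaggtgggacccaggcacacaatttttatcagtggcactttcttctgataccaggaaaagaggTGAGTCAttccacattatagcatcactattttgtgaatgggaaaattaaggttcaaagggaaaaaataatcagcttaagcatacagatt
EPHB2, FR-only, hg19 chr1:23024275-23024474, plus strand: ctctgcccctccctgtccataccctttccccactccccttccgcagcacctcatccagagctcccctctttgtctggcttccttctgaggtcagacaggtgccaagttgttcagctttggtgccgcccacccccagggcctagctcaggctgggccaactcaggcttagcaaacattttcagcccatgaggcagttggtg
SOX9, FR-only, hg19 chr17:70131199-70131398, plus strand: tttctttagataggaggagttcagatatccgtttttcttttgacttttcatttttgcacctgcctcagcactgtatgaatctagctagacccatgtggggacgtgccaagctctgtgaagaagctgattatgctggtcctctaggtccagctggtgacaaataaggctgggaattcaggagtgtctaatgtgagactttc
PROM1, FR-only, hg19 chr4:16130905-16131104, plus strand: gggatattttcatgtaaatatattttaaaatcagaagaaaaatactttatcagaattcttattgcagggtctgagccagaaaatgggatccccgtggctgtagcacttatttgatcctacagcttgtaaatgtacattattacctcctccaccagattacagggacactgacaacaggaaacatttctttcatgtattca
CD44, Pa-only, intron, hg19 chr11:35161164-35161363, plus strand: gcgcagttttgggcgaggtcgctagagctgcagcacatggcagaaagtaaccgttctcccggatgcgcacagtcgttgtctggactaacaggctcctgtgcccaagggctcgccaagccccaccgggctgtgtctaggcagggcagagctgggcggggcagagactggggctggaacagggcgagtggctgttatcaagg
CD44, bases before the transcription start site, GRCh38.p14 chr11:35138921-35139170, plus strand: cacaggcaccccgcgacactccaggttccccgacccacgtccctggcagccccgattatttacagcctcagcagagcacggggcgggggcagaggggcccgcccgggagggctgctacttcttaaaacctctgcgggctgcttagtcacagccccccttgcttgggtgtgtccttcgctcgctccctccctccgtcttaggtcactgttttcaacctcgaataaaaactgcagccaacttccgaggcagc

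At the start sites, most of these genes carried both marks in both lines (the plot of TSS scores). H3K23su peaks lay within 2 kb of the TSS in all 4 libraries for 6 of the 10 genes, LGR5, AXIN2, RNF43, ZNRF3, MYC and SOX9, beside 54.7% of all protein-coding genes. H3K27ac peaks did so for 8 of 10, the same 6 with ASCL2 and EPHB2, beside 59.0%. CD44 had a TSS peak only in HCT15-Pa in both marks, a class that held 1.71% of all genes in H3K23su and 2.19% in H3K27ac. ASCL2 had H3K23su at its TSS only in HCT15-FR (1.87% of all genes), and no member was in that class in H3K27ac (1.42%). PROM1 had no TSS peak of either mark in any library, as 33.4% of genes in H3K23su and 26.4% in H3K27ac. That held for the canonical TSS. When every annotated transcript start was used, PROM1 was no longer without H3K27ac, but it still had no H3K23su. The number of members with a TSS peak was 8 and 7 in HCT15-Pa and 8 and 8 in HCT15-FR for H3K23su, and 9 and 9 against 8 and 8 for H3K27ac. These counts gave p = 1 and p = 0.333 in a two-sided exact permutation test, of which 0.333 is the smallest that 2 against 2 libraries allow.

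**Figure D1:**
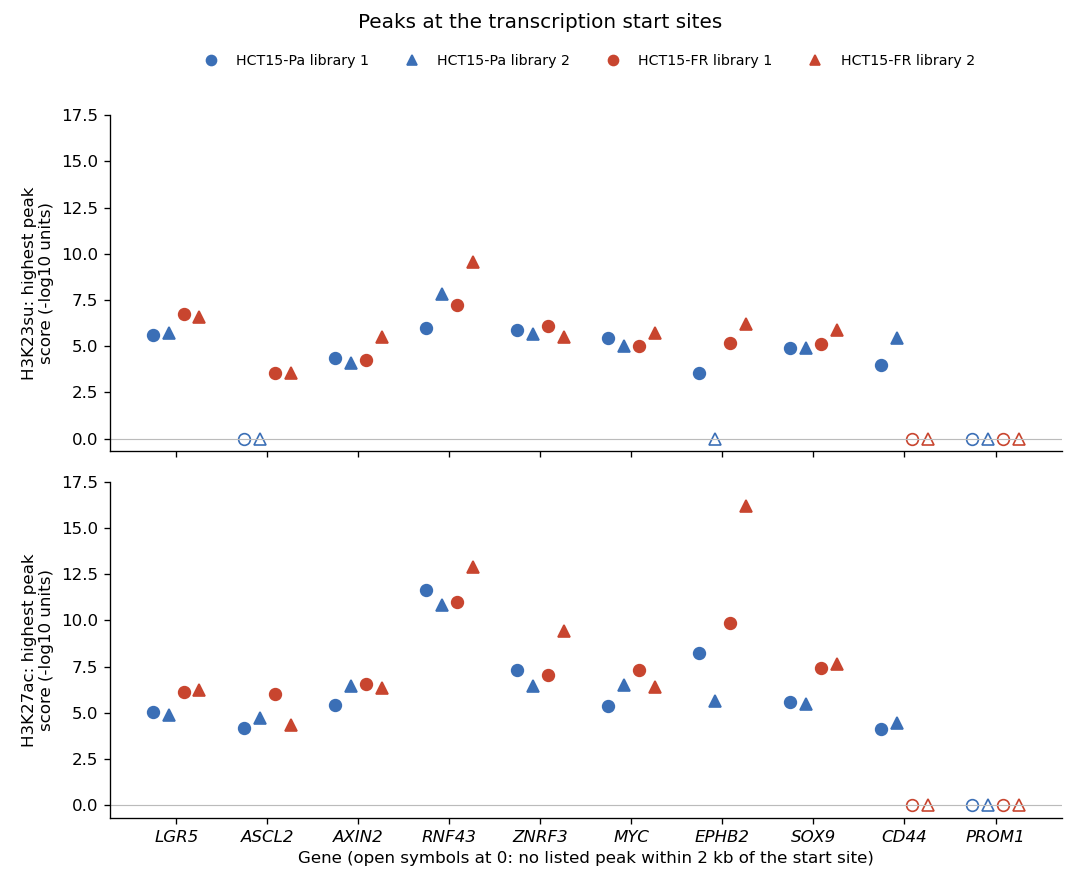
Highest score of a listed peak within 2 kb of the TSS of each gene, in −log10 units, for H3K23su (top) and H3K27ac (bottom); circles and triangles are libraries 1 and 2, blue is HCT15-Pa, red is HCT15-FR, and open symbols at 0 mean no listed peak. CD44 has closed symbols in HCT15-Pa alone in both panels, PROM1 has none, and RNF43 reaches 9.55 in H3K23su and 12.9 in H3K27ac.

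To compare whole neighborhoods, the length covered by peaks was summed over each gene body and 100 kb either side and scaled so that the 4 lists of a mark had the same total length. The lines were compared on log2(covered kb + 0.5) with limma, with Benjamini-Hochberg adjustment over all genes tested (16484 for H3K23su and 17186 for H3K27ac). Of the 10 genes, 1 was called higher in HCT15-FR for H3K23su (4.91% of all genes tested), EPHB2, and 1 was called lower (4.98%), CD44. For H3K27ac none was called higher (6.86%) and 1, again CD44, was called lower (7.28%). At an unadjusted p under 0.05, 6 members passed for H3K23su, beside 29.7% of all genes tested, and 3 for H3K27ac, beside 30.9%. The scaled lengths of the lines did not overlap for 4 members that were higher in HCT15-FR and 3 that were lower, in each mark. Among all genes tested, those shares were 34.1% and 25.5% for H3K23su and 28.0% and 33.4% for H3K27ac, so the counts among the members stood close to the background. The scaling mattered, since without it the median gene was higher in HCT15-FR by 0.28 for H3K23su and 0.21 for H3K27ac on the log2 scale. Unscaled, LGR5, ZNRF3, EPHB2 and PROM1 were called higher for H3K23su, and LGR5, ZNRF3, EPHB2 and SOX9 for H3K27ac.

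**Figure D2:**
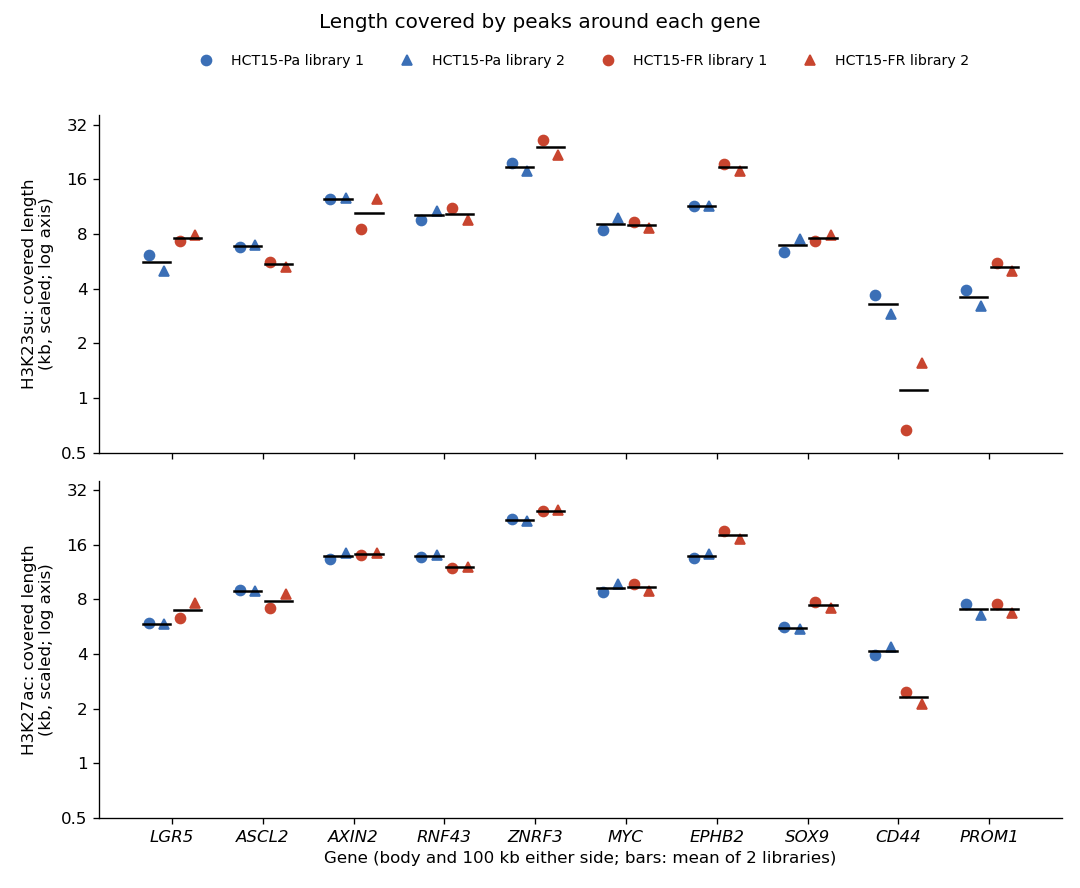
Scaled length covered by peaks (kb, log axis) over each gene body and 100 kb either side, for H3K23su (top) and H3K27ac (bottom); symbols are libraries as in the plot of TSS scores and bars are means of 2 libraries. The red symbols of CD44 lie below the blue ones in both panels, and those of EPHB2 lie above them in both.

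**Figure D3:**
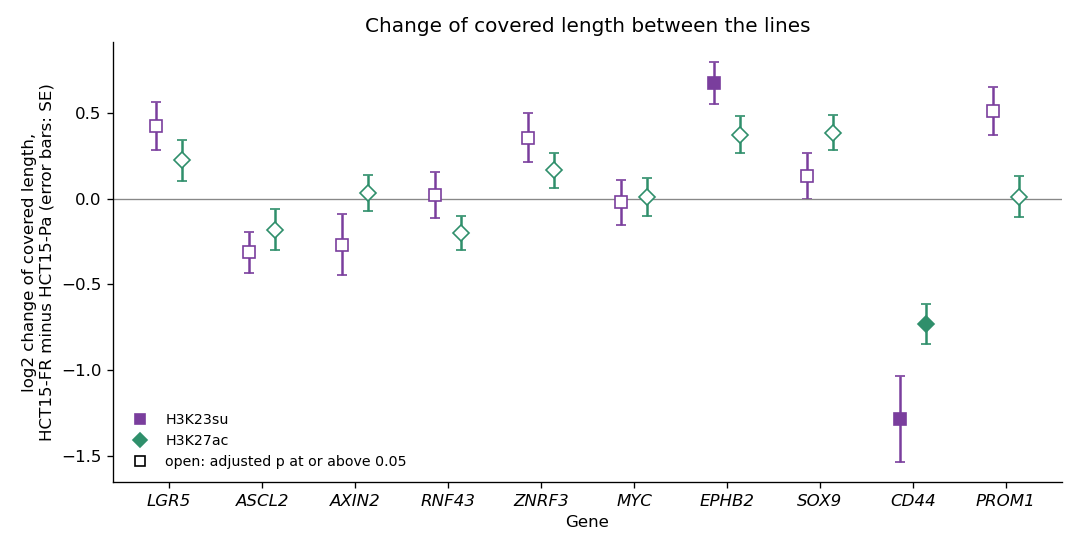
Change of the scaled covered length, HCT15-FR minus HCT15-Pa, on the log2 scale (squares H3K23su, diamonds H3K27ac; error bars are SE of the limma fit on 2 libraries per line). Closed symbols passed an adjusted p of 0.05: EPHB2 and CD44 in H3K23su, and CD44 in H3K27ac.

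CD44, on the plus strand of chromosome 11 (hg19, 35160429 to 35253949), encodes a hyaluronan receptor of the cell surface that is widely used as a marker of stem-like colon cancer cells. Both marks were listed in its gene body in HCT15-Pa and neither in HCT15-FR. The H3K23su peak at its TSS scored 3.98 and 5.43 in the HCT15-Pa libraries, at the 34.0th and 77.7th percentile of their lists, and no peak was listed in either HCT15-FR library. The H3K27ac peak at the same place scored 4.12 and 4.43 in HCT15-Pa, and was again not listed in HCT15-FR. The H3K27ac scores, at the 43.8th and 51.4th percentile of their lists, were of middling rank. Over the gene body, H3K23su covered 1.53 and 1.25 kb in HCT15-Pa, and H3K27ac covered 1.75 and 1.35 kb. No peak of either mark was listed anywhere in the body of CD44 in the 2 HCT15-FR libraries. A second Pa-only H3K23su region lay in an intron 35.1 kb past the TSS, with scores of 4.31 and 3.96. Another lay 97.3 kb past the TSS, beyond the gene's end, with scores of 4.09 and 5.12. No H3K27ac region overlapped the one at 35.1 kb, and the one at 97.3 kb met a shared H3K27ac region. The upstream flank did not follow the gene body, with an H3K23su length of 0.583 and 0.562 kb in HCT15-Pa and 0.730 and 0.904 kb in HCT15-FR. Downstream, the H3K23su length was 1.27 and 0.805 kb in HCT15-Pa, and 0.767 kb in FR replicate 2 with no peak in FR replicate 1. The H3K27ac lengths of the lines overlapped in both flanks. Upstream they were 0.777 and 0.967 kb in HCT15-Pa and 1.13 and 0.938 kb in HCT15-FR, and downstream 1.12 and 1.66 kb against 1.56 and 1.39 kb. FR-only H3K27ac regions stood 98.5 kb upstream and 104 and 136 kb downstream of the TSS, the last of them in an intron of SLC1A2.

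Over the whole window of CD44, the scaled H3K23su length was 3.67 and 2.89 kb in HCT15-Pa and 0.665 and 1.55 kb in HCT15-FR, with no overlap between the lines. It fell by 1.28 ± 0.252 on the log2 scale (SE, n = 2 libraries per line, limma adjusted p = 0.0236). The scaled H3K27ac length was 3.95 and 4.39 kb in HCT15-Pa and 2.48 and 2.14 kb in HCT15-FR, and fell by 0.73 ± 0.116 (limma adjusted p = 0.00945). Both marks thus fell over the whole window, and the difference between their changes was 0.55 ± 0.318 (limma interaction of mark and line, adjusted p = 0.492). For H3K23su the call was lost without Pa replicate 1 (limma adjusted p = 0.0925), without Pa replicate 2 (0.0578), without FR replicate 1 (0.0572), without the filter on low lengths (0.0590) and when peaks were counted in place of their length (log2 change −0.96, adjusted p = 0.23). For H3K27ac it was lost without FR replicate 2 (limma adjusted p = 0.0559) and likewise by the number of peaks (log2 change −0.067, adjusted p = 0.905).

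EPHB2, on the plus strand of chromosome 1 (hg19, 23037332 to 23247993), encodes a receptor tyrosine kinase for ephrin-B ligands that positions cells along the crypt. It was the only member called higher in HCT15-FR. Its scaled H3K23su length was 11.5 and 11.5 kb in HCT15-Pa and 19.3 and 17.8 kb in HCT15-FR, a rise of 0.67 ± 0.121 on the log2 scale (SE, n = 2 per line, limma adjusted p = 0.0180). Its scaled H3K27ac length was 13.5 and 14.3 kb against 19.1 and 17.2 kb, a difference of 0.37 ± 0.109 that did not pass (limma adjusted p = 0.0649). The lines did not overlap in either mark, and the difference between the marks was not significant (−0.30 ± 0.153, limma interaction adjusted p = 0.428). Most of the added H3K23su was in the gene body, where 7.33 and 6.76 kb were covered as listed in HCT15-Pa and 15.1 and 12.9 kb in HCT15-FR. The H3K23su call on EPHB2 was lost when FR replicate 1 (limma adjusted p = 0.115), FR replicate 2 (0.0758) or Pa replicate 1 (0.0529) was left out, with the stronger 50% of each list (0.0822), with 10 kb in place of 100 kb (0.0518) and when peaks were counted (0.143).

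Among the single regions of EPHB2, 6 of 46 for H3K23su and 10 of 56 for H3K27ac were FR-only. These shares of 13.0% and 17.9% stood beside 7.95% and 9.08% over the genome. In each mark 1 region was Pa-only (2.17% and 1.79%, beside 5.01% and 4.53%). At the TSS, the highest H3K27ac score was 8.24 and 5.63 in HCT15-Pa and 9.85 and 16.2 in HCT15-FR, and both HCT15-FR values were the higher ones. By percentile of their own lists these peaks overlapped between the lines, with 86.9 and 71.0 in HCT15-Pa and 86.5 and 96.5 in HCT15-FR. H3K23su at the TSS was listed in Pa replicate 1 with 3.55, not in Pa replicate 2, and in HCT15-FR with 5.18 and 6.18. The intergenic region 13.0 kb upstream, printed among the sequences, was FR-only in both marks, with H3K23su scores of 6.51 and 6.65, the 82.7th and 83.8th percentile of their lists, and H3K27ac scores of 4.42 and 4.95. Neither motif was in its printed sequence. Further FR-only H3K23su regions lay in introns of EPHB2, 18.3 and 24.9 kb past the TSS, and the FR-only H3K27ac region 52.2 kb upstream lay in an intron of C1QB, a complement gene.

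LGR5, on the plus strand of chromosome 12 (hg19, 71833578 to 71980090), encodes the R-spondin receptor that marks crypt base stem cells. Its start site was marked in all libraries. H3K23su scored 5.59 and 5.74 there in HCT15-Pa and 6.72 and 6.56 in HCT15-FR, and H3K27ac scored 5.04 and 4.88 against 6.13 and 6.22. Both marks had the higher scores in HCT15-FR without overlap, but scores also depend on the depth of a library, which is unknown. The length covered within 2 kb of the TSS was 1.67 and 0.660 kb in HCT15-Pa and 2.19 and 2.08 kb in HCT15-FR for H3K23su, and 1.02 and 1.31 against 2.03 and 2.30 kb for H3K27ac. Over the full window, the scaled H3K23su length was 6.16 and 4.99 kb in HCT15-Pa and 7.34 and 7.92 kb in HCT15-FR. That difference of 0.43 ± 0.14 on the log2 scale did not pass (limma adjusted p = 0.0949), nor did that of H3K27ac (0.22 ± 0.119, limma adjusted p = 0.253). In the narrower windows of 10 and 2 kb on either side of the gene, LGR5 was called higher in HCT15-FR in both marks, with a largest log2 difference of 1.01 for H3K23su and 0.62 for H3K27ac.

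Away from the start site, LGR5 had 4 FR-only and 1 Pa-only H3K23su regions out of 16. These shares of 25% and 6.25% stood beside 7.95% and 5.01% over the genome. For H3K27ac it had 1 FR-only region out of 14 (7.14%, beside 9.08%) and no Pa-only region (beside 4.53%). The region 187 kb past the TSS was FR-only in both marks, with H3K23su scores of 5.41 and 4.90 and H3K27ac scores of 3.82 and 6.14. Its printed sequence held 1 TCF/LEF match and 1 AP-1 match, the only such pair among the printed regions. The region lay inside ZFC3H1, 36.9 kb from the TSS of that gene, so that it was closer to ZFC3H1 than to LGR5. An FR-only H3K23su region in an LGR5 intron, 53.0 kb past the TSS with scores of 4.36 and 4.62, also held a TCF/LEF match. The Pa-only region, 81.5 kb upstream in an intron of TSPAN8, scored 5.39 and 3.56.

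ASCL2, on the minus strand of chromosome 11 (hg19, 2289728 to 2291818), encodes the basic helix-loop-helix factor that switches on the stem cell program of the crypt. Each mark had an FR-only region at its start site, but these regions did not overlap, and H3K27ac was also listed there in HCT15-Pa. The wider neighborhood of ASCL2 was not called in either direction. H3K23su was listed within the gene, 0.623 kb past the TSS, with scores of 3.55 and 3.53 in HCT15-FR and none in HCT15-Pa, at only the 11.5th and 10.4th percentile of the lists. H3K27ac had an FR-only region 0.379 kb upstream of the TSS, with scores of 5.61 and 4.31, beside a region inside the gene that all 4 libraries shared (4.18, 4.69, 6.03 and 3.72). This shared H3K27ac region overlapped the FR-only H3K23su region. The H3K23su peaks ranked near the end of the lists, and none was listed at the ASCL2 TSS in the stronger 50% of each list. Over the window, the scaled H3K23su length was 6.81 and 6.94 kb in HCT15-Pa and 5.62 and 5.26 kb in HCT15-FR (−0.31 ± 0.120 on the log2 scale, limma adjusted p = 0.134). The H3K27ac length was 9.0 and 8.90 kb against 7.15 and 8.57 kb (−0.18 ± 0.119, limma adjusted p = 0.348). Both Pa-only H3K23su regions of ASCL2 were near the ends of its window, 94.5 kb downstream by TH and 98.5 kb upstream by CD81.

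PROM1, on the minus strand of chromosome 4 (hg19, 15964699 to 16086001), encodes the membrane protein CD133, another marker used to sort stem-like cancer cells. Its gene body carried no H3K23su peak in any of the 4 libraries, and 4, 3, 3 and 2 H3K27ac peaks in Pa replicates 1 and 2 and FR replicates 1 and 2. The H3K23su around the gene was all in the flanks. Over the window it covered a scaled 3.94 and 3.21 kb in HCT15-Pa and 5.56 and 5.02 kb in HCT15-FR, a difference of 0.51 ± 0.14 on the log2 scale that did not pass (limma adjusted p = 0.0608), but did with a replicate block (0.0256). The H3K27ac length was 7.59 and 6.53 kb in HCT15-Pa and 7.54 and 6.69 kb in HCT15-FR, so the lines overlapped (0.01 ± 0.121, limma adjusted p = 0.959). PROM1 was the only member whose 2 marks differed at an unadjusted p under 0.05, by −0.50 ± 0.187 (limma interaction, adjusted p = 0.302), beside 13.4% of all genes tested. No member passed that test after adjustment, beside 0.0551% of 16337 genes whose change was called higher in H3K27ac than in H3K23su and 0.0306% called the other way. The region 45.4 kb upstream of PROM1 was FR-only in both marks, with H3K23su scores of 4.18 and 4.21 and H3K27ac scores of 3.62 and 4.21.

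SOX9, on the plus strand of chromosome 17 (hg19, 70117161 to 70122557), encodes an HMG-box factor of crypt base cells. The lengths covered in its gene body overlapped between the lines in both marks, while those downstream did not. For H3K23su, the region over the TSS scored 4.88 and 4.42 in HCT15-Pa and 4.73 and 5.86 in HCT15-FR, and the lines overlapped. For H3K27ac, the region there scored 5.61 and 5.47 against 7.41 and 7.63. In the 100 kb downstream, H3K27ac covered 2.39 and 2.86 kb as listed in HCT15-Pa and 5.33 and 5.64 kb in HCT15-FR. H3K23su covered 3.41 and 3.30 kb against 5.33 and 5.93 kb there. Over the window, the scaled H3K27ac length of 5.64 and 5.53 kb in HCT15-Pa and 7.74 and 7.15 kb in HCT15-FR fell just short of the threshold (0.38 ± 0.103 on the log2 scale, limma adjusted p = 0.0515). That value depended on the setting, since the H3K27ac difference of SOX9 was 1.12 with the stronger 50% of each list (limma adjusted p = 0.00434) and 0.0054 with 10 kb in place of 100 kb (0.986). H3K23su differed by less (0.13 ± 0.132, limma adjusted p = 0.549), but the marks were not shown to differ (limma interaction adjusted p = 0.533). The region 14.1 kb downstream was FR-only in both marks, with low scores of 3.91 and 4.11 for H3K23su and 3.58 and 4.16 for H3K27ac. A stronger FR-only H3K27ac region, with 5.33 and 5.05, lay 54.4 kb downstream. No other protein-coding gene had its TSS in the window of SOX9, and the same was true of CD44 and MYC.

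AXIN2, RNF43 and ZNRF3 restrain the pathway. AXIN2 is a scaffold of the β-catenin destruction complex, and RNF43 and ZNRF3 are membrane ubiquitin ligases that remove Frizzled from the surface. None of the 3 was called in either mark with 100 kb and whole scaled lists, and RNF43 was the only member without an FR-only or Pa-only H3K23su region. RNF43, on the minus strand of chromosome 17 (hg19, 56431037 to 56494956), had the highest H3K23su score of the 10 TSSs, 6.0 and 7.82 in HCT15-Pa and 7.24 and 9.55 in HCT15-FR. The start of another coding gene, ENSG00000285897, was 0.007 kb from the middle of that region, so the peak cannot be given to RNF43 alone. RNF43 had no FR-only and no Pa-only H3K23su region among 32, beside 7.95% and 5.01% of regions over the genome. Of its 40 H3K27ac regions, 2 were FR-only and 4 Pa-only (5% and 10%, beside 9.08% and 4.53%). Its scaled H3K23su length was 9.59 and 10.7 kb against 11.1 and 9.5 kb (0.02 ± 0.135 on the log2 scale, limma adjusted p = 0.939), and the lines overlapped. For H3K27ac the lengths of 13.7 and 14.0 kb in HCT15-Pa lay above those of 12 and 12.1 kb in HCT15-FR, without passing the test (−0.20 ± 0.0996, limma adjusted p = 0.226).

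AXIN2, on the minus strand of chromosome 17 (hg19, 63524681 to 63557766), had regions of both lines side by side upstream of its TSS. A Pa-only region in both marks lay about 7 kb upstream, with H3K23su scores of 3.75 and 6.31 and H3K27ac scores of 5.19 and 4.41. An FR-only region in both marks lay 23.7 kb upstream, with H3K23su scores of 5.23 and 4.41 and H3K27ac scores of 4.39 and 4.45, and its printed sequence held an AP-1 match. Both were in introns of ENSG00000266076. The H3K23su scores at the TSS of 4.38 and 4.07 in HCT15-Pa and 4.27 and 5.51 in HCT15-FR overlapped between the lines. For H3K27ac, the shared region 1.75 kb past the TSS scored 4.40 and 3.37 in HCT15-Pa and 6.54 and 6.36 in HCT15-FR, without overlap. A region 2.12 kb upstream scored 5.43 and 6.46 in HCT15-Pa, 3.61 in FR replicate 2 and had no peak in FR replicate 1. Another, 0.187 kb upstream, scored 4.50 and 4.05 in HCT15-Pa and 4.65 in FR replicate 1, with no peak in FR replicate 2. The scaled H3K23su lengths were 12.5 and 12.6 kb in HCT15-Pa and 8.53 and 12.4 kb in HCT15-FR, and FR replicate 1 set the difference (−0.27 ± 0.178 on the log2 scale, limma adjusted p = 0.356, and −0.009 without it). The H3K27ac lengths of 13.4 and 14.4 kb and of 14.0 and 14.5 kb overlapped (0.03 ± 0.104, limma adjusted p = 0.854). With 2 kb on either side, AXIN2 was called higher for H3K27ac (0.77 ± 0.179, limma adjusted p = 0.0415).

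ZNRF3, on the plus strand of chromosome 22 (hg19, 29279560 to 29453476), had more FR-only H3K23su regions than any other member. As a share of their regions, LGR5 (25%), PROM1 (25%) and MYC (15%) had more. In ZNRF3, 10 of 70 H3K23su regions were FR-only (14.3%, beside 7.95% over the genome) and 3 were Pa-only (4.29%, beside 5.01%). Of its 50 H3K27ac regions, 5 were FR-only and 3 Pa-only (10% and 6%, beside 9.08% and 4.53%). Of the FR-only H3K23su regions of ZNRF3, 4 were FR-only in both marks, at 99.3, 74.8 and 9.55 kb upstream and 246 kb past the TSS. The last was in an intron of KREMEN1, the gene of a receptor for DKK inhibitors. The strongest of these H3K27ac regions was 99.0 kb upstream, in an intron of CCDC117, with scores of 9.91 and 7.85 in HCT15-FR and none in HCT15-Pa. The region 74.8 kb upstream, with H3K23su scores of 5.49 and 4.81 and H3K27ac scores of 4.08 and 6.21, held an AP-1 match. In their central 400 bp, the H3K23su regions 9.55 kb upstream and 246 kb past the TSS held one too. The H3K27ac region 99.0 kb upstream held a TCF/LEF match. One region was Pa-only in both marks, 19.6 kb past the TSS in an intron of ZNRF3, with H3K23su scores of 5.5 and 3.54 and H3K27ac scores of 3.76 and 4.02. The start site was marked in all libraries, with H3K23su scores of 5.88 and 5.66 against 6.08 and 5.47, and H3K27ac scores of 7.34 and 6.43 against 7.05 and 9.43, so the lines overlapped. The scaled H3K23su length of 19.6 and 17.7 kb in HCT15-Pa and 26.3 and 21.9 kb in HCT15-FR did not pass (0.36 ± 0.14 on the log2 scale, limma adjusted p = 0.142), nor did the H3K27ac length of 22.1 and 21.7 kb against 24.5 and 24.8 kb (0.16 ± 0.0996, limma adjusted p = 0.313). With the stronger 50% of each list, ZNRF3 was called higher for H3K27ac (0.46 ± 0.113, limma adjusted p = 0.0433).

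MYC, on the plus strand of chromosome 8, encodes the transcription factor that drives growth downstream of the pathway, and distal enhancers in the gene desert before it are known to act on it in colon cells. Near the gene, the lines were alike. The TSS scored 5.43 and 5.00 in HCT15-Pa and 5.02 and 5.71 in HCT15-FR for H3K23su, and 5.39 and 6.51 against 7.32 and 6.42 for H3K27ac, with overlap in both marks. The scaled length over the gene body and 100 kb either side was 8.42 and 9.77 kb against 9.27 and 8.60 kb for H3K23su (−0.02 ± 0.131 on the log2 scale, limma adjusted p = 0.936). For H3K27ac it was 8.75 and 9.76 kb against 9.76 and 8.87 kb (0.01 ± 0.113, limma adjusted p = 0.961). Of 20 H3K23su regions, 3 were FR-only and 1 was Pa-only (15% and 5%, beside 7.95% and 5.01% over the genome). The FR-only regions lay 8.66 kb upstream in an intron of CASC11, with scores of 5.17 and 4.16, and 87.5 and 95.6 kb downstream in introns of PVT1, where H3K27ac was shared by the lines.

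The wider interval of 600 kb reached 548 kb upstream of the MYC TSS and 51.5 kb downstream of it. H3K27ac covered more of it in HCT15-FR, 23.5 and 21.7 kb as listed, than in HCT15-Pa, 15.3 and 16 kb, with no overlap (p = 0.333 in a two-sided exact permutation test, the smallest it can give). The number of H3K27ac peaks was 31 and 31 in HCT15-Pa and 32 and 31 in HCT15-FR, so peaks were wider rather than more numerous. Scaled to the total length of each list, the difference shrank from 7.01 to 3.77 kb. For H3K23su the covered lengths were 12.9 and 13.3 kb in HCT15-Pa and 16.4 and 14.2 kb in HCT15-FR (p = 0.333 in the same exact permutation test), and the scaled difference turned to −0.339 kb. Of 51 H3K27ac regions in the interval, 17 were shared, 1 was FR-only and 4 were Pa-only, beside 25.2%, 9.08% and 4.53% over the genome. Of 52 H3K23su regions, 13 were shared, 4 were FR-only and 2 were Pa-only, beside 23.9%, 7.95% and 5.01%.

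Some shared regions of the MYC interval differed in score between the lines (the plot of the interval by distance), and those named here were chosen after their values were seen. The H3K27ac region 145 kb upstream scored 3.88 and 4.73 in HCT15-Pa and 9.59 and 10.7 in HCT15-FR, which moved it from the 35.4th and 58.3rd to the 85.8th and 89.0th percentile of the lists. H3K23su at the same place scored 4.76 and 5.33 against 4.57 and 6.09, and the lines overlapped. The highest single H3K27ac score stood 470 kb upstream, with 7.72 and 9.14 in HCT15-Pa and 14.2 and 10.8 in HCT15-FR. By percentile, with 85.1 and 89.06 against 94.5 and 89.10, the lines nearly met there. The region 335 kb upstream, at the locus of the noncoding gene CCAT2, had H3K27ac in all libraries, 6.96 and 5.39 against 8.07 and 8.41. By percentile, with 81.6 and 68.3 against 80.1 and 81.8, the lines overlapped at this region. H3K23su was listed there in single libraries only. One region, 133 kb upstream, was FR-only in both marks, with H3K23su scores of 3.93 and 3.96 and H3K27ac scores of 3.64 and 4.33.

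**Figure D4:**
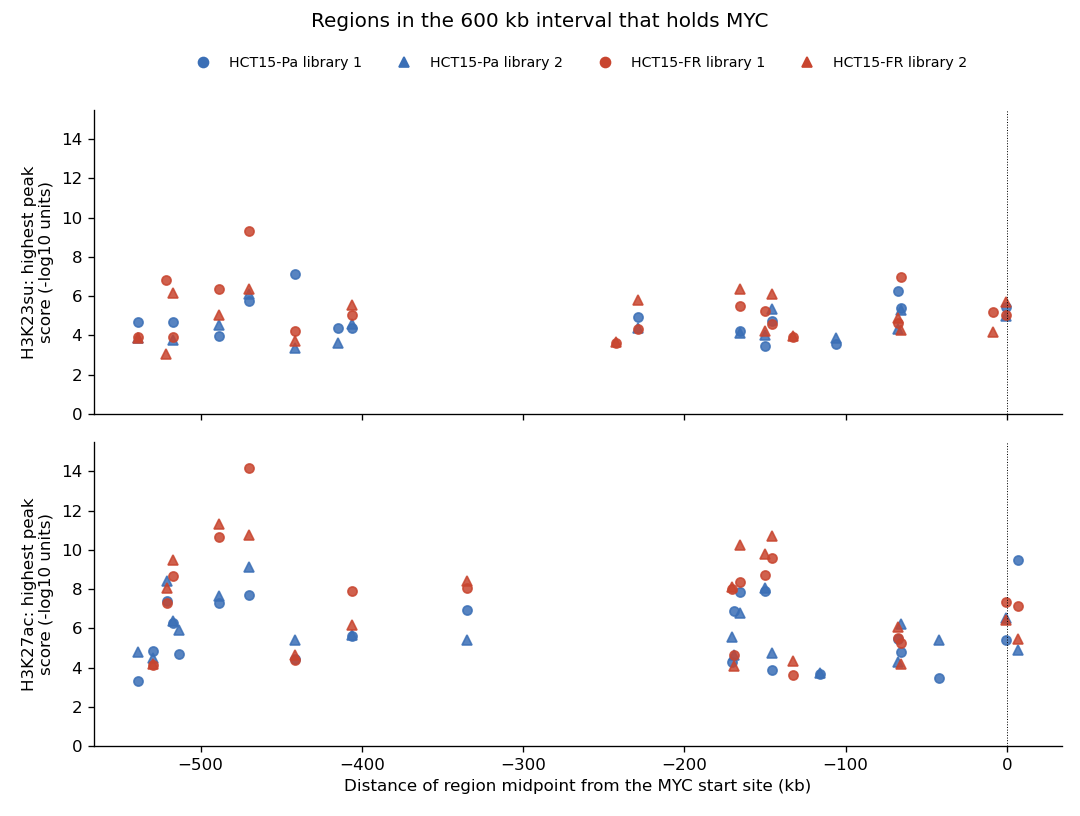
Highest peak score (−log10 units) of each FR-only, Pa-only or shared region by the distance of its midpoint from the MYC TSS (kb, upstream to the left), for H3K23su (top) and H3K27ac (bottom); circles and triangles are libraries 1 and 2, blue is HCT15-Pa and red is HCT15-FR, and a library with no peak has no symbol. In the lower panel the red symbols 145 kb upstream, at 9.59 and 10.7, stand apart from the blue ones at 3.88 and 4.73.

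Over the 10 genes together, FR-only regions outnumbered Pa-only regions in both marks, as they did over the whole genome (the plot of region positions). Of 287 H3K23su regions, 30 were FR-only, 16 Pa-only and 81 shared, beside 7.95%, 5.01% and 23.9% of all 122500 regions. Of 306 H3K27ac regions, 29 were FR-only, 13 Pa-only and 95 shared, beside 9.08%, 4.53% and 25.2% of 133786. The shares around the members were 10.5%, 5.57% and 28.2% for H3K23su and 9.48%, 4.25% and 31.0% for H3K27ac, and both stood near the background. By position, the FR-only H3K23su regions were spread over the upstream flanks (10), the gene bodies (11) and the downstream flanks (9), and the FR-only H3K27ac regions counted 15, 6 and 8.

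**Figure D5:**
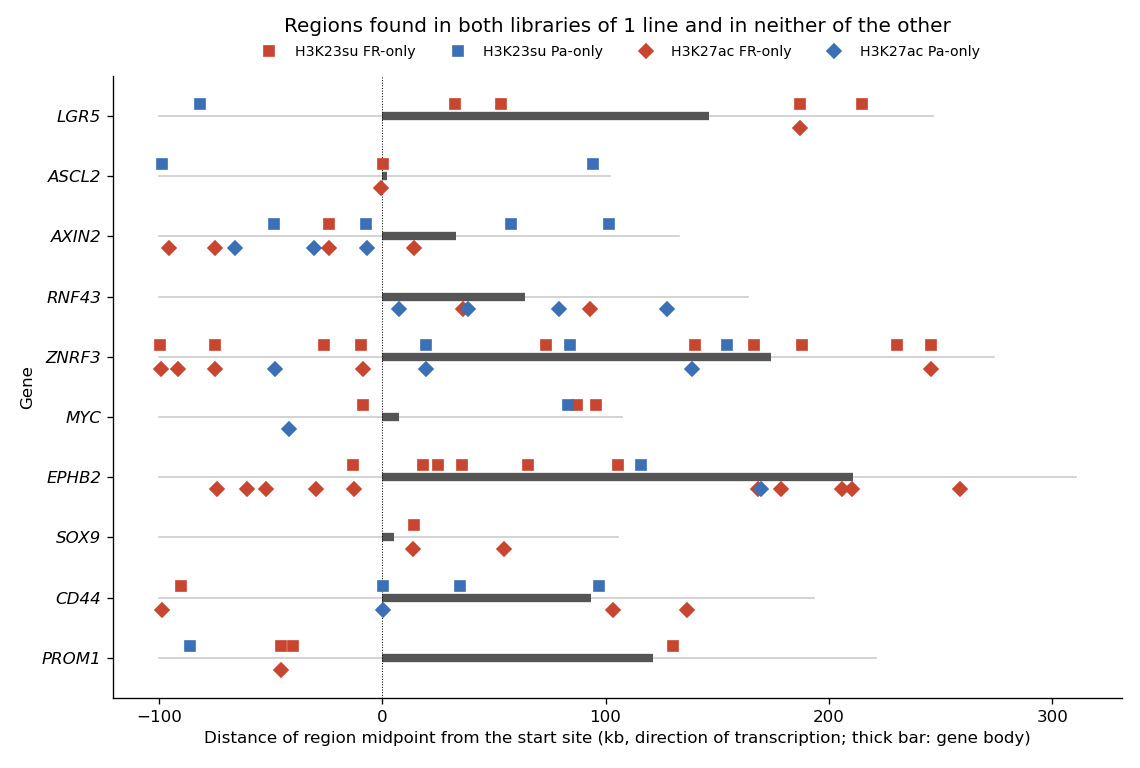
Midpoints of the FR-only (red) and Pa-only (blue) regions relative to the TSS (kb, in the direction of transcription), for H3K23su (squares, above each line) and H3K27ac (diamonds, below it); the thick bar is the gene body and the thin line the window. EPHB2 and ZNRF3 hold the most red symbols, RNF43 has no square, and the body of CD44 holds blue squares and a blue diamond and nothing red.

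The 2 marks shared a part of these differences. Among the 30 regions that H3K23su marked only in HCT15-FR, 9 (30%) met, by at least 1 bp, an H3K27ac region of the same class, 6 (20%) met a shared one and none met a Pa-only one. Over the genome, 35.8%, 17.1% and 0.401% did so. Among the 16 that were Pa-only, 3 had a Pa-only counterpart in H3K27ac (18.8%), beside 19.8% over the genome. Of the shared H3K23su regions near the members, 68 of 81 overlapped a shared H3K27ac region (84.0%, beside 80.3%). The agreement of the marks near these genes was thus of the order seen elsewhere.

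The TCF/LEF motif was searched because these genes are known targets of β-catenin with TCF/LEF factors, and the AP-1 motif because FOSL2, a factor the study examined, is an AP-1 member. ATCAAAG matched, on either strand, in the central 400 bp of 20 of 175 H3K23su regions around the members (11.4%) and of 26 of 187 H3K27ac regions (13.9%), counting regions found in at least 2 libraries. Among all such regions the shares were 5.38% of 65076 and 5.36% of 72105. TGACTCA matched in 12% and 12.8% of the member regions, beside 14.9% and 16.9% of all regions. Regions of the 2 marks overlap and neighboring regions share sequence, so these shares are a description. ZNRF3 held the most TCF/LEF matches, in 7 of 39 H3K23su and 8 of 35 H3K27ac regions, and SOX9 held none in either mark.

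By class, TCF/LEF matches were found in 4 of the 30 FR-only H3K23su regions and in 10 of 81 shared ones, beside 7.61% and 4.69% of all FR-only and shared regions. In H3K27ac they were found in 5 of 29 FR-only and 19 of 95 shared regions, beside 9.76% and 4.80%. None of the 16 Pa-only H3K23su regions or the 13 Pa-only H3K27ac regions of the members matched, beside 4.69% and 3.77% of all Pa-only regions. AP-1 matches were found in 9 of 30 FR-only and none of 16 Pa-only H3K23su regions, beside 21.0% and 11.7%. In H3K27ac the order was the other way, with 6 of 29 FR-only and 4 of 13 Pa-only regions, beside 24.1% and 12.9%. In RefSeq promoter windows of 300 bases, 2.62% held the TCF/LEF motif and 4.95% the AP-1 motif, and the 250 bases before the CD44 TSS printed here held neither.

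The other genes of the pathway were read from a list of 62 receptors, cytoplasmic and nuclear components, inhibitors and further targets. For H3K23su, 55 could be tested, none was called higher in HCT15-FR (4.91% of all genes tested) and 2 were called lower (4.98%). The genes called lower were the inhibitor APCDD1 (fell by 0.73 ± 0.158 on the log2 scale, limma adjusted p = 0.0317) and the receptor FZD7 (fell by 0.52 ± 0.126, limma adjusted p = 0.0433). At an unadjusted p under 0.05, 15 of the 55 passed, beside 29.7% of all genes tested. The median of the 55 was 0.005, beside 0.038 over all genes tested. For H3K27ac, 54 could be tested, 5 were called higher (6.86%) and 4 lower (7.28%), and the median of 0.003 stood beside −0.021.

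LEF1, the partner of β-catenin on DNA whose motif was searched above, changed most among the genes called for H3K27ac. Its H3K27ac length as listed was 3.22 and 3.06 kb in HCT15-Pa and 10.1 and 9.82 kb in HCT15-FR, a scaled rise of 1.30 ± 0.101 on the log2 scale (limma adjusted p = 0.000909). H3K27ac at the LEF1 TSS was listed only in HCT15-FR, with 4.92 and 6.13, whereas H3K23su was there in all 4 libraries. The scaled H3K23su length around LEF1 rose by 0.44 ± 0.120 without passing (limma adjusted p = 0.0591). The changes of the 2 marks were not shown to differ (0.86 ± 0.143, limma interaction adjusted p = 0.0836). The receptors FZD10 (0.71 ± 0.183, limma adjusted p = 0.0459) and LRP6 (0.46 ± 0.0995, 0.0265), the inhibitor DKK1 (0.54 ± 0.107, 0.0193) and the corepressor TLE1 (0.46 ± 0.108, 0.0357) were also called higher for H3K27ac. Called lower were SMOC2, a matricellular protein gene of the stem cell signature (−1.08 ± 0.0993, limma adjusted p = 0.00148), FZD2 (−0.72 ± 0.121, 0.0116), APCDD1 (−0.67 ± 0.15, 0.0292) and EPHB3, the sister receptor of EPHB2 (−0.46 ± 0.120, 0.0473). TSS peaks were FR-only in both marks for the secreted inhibitors DKK4 and WIF1, and in H3K27ac alone for FZD10, LEF1 and ALDH1A1. That made 2 of 62 genes in H3K23su, beside 1.87% of all genes, and 5 of 62 in H3K27ac, beside 1.42%. No gene of the list was Pa-only at its TSS in either mark, beside 1.71% and 2.19% of all genes, so the H3K23su counts stood near the background.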

How the data were processed

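CUT&Tag for H3K23su and H3K27ac was made from HCT15-Pa and HCT15-FR, with 2 libraries per line and mark (8 in all). According to the study's methods, the reads were aligned to hg19 with Bowtie2 and peaks were called per library with MACS2, in broad mode for H3K27ac only, so the forms of the peaks differ between the marks. The authors deposited peak lists without a header, whose score was read from its values as a −log10 P value. The lists hold no read counts, so depth is unknown and no counting interval can be given. The methods state that spike-in DNA was added to each library, but not whether it was used in calling the peaks. No column held comparisons made by the authors.

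Peaks were assigned to GENCODE 44 genes on hg19 within 2 kb of the canonical TSS, in the gene body and within 100 kb either side. Peaks of the 4 libraries of a mark were merged into regions. Covered length was scaled to equal list totals, and log2(kb + 0.5) was fitted with limma 3.58.1 in R 4.3.3 for genes with a mean of at least 2 kb, with Benjamini-Hochberg adjustment at 0.05. The scripts were tested on simulated data. Single values were compared with two-sided exact permutation tests. All 10 members were described, and the regions named were those at the TSS, up to 3 FR-only and 3 Pa-only regions per gene and mark with the highest ranks, and those of the same class in both marks. Other Wnt genes were named where called or where the TSS class differed between the lines. Alternatives were the scaling, filter, pseudocount, window, threshold, overlap, merging and TSS set, peak number, a replicate block and leaving out each library. The members and lists were chosen with earlier results of these data known. The values of 1 marker of another cell type are not reported here.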

Additional observations from a re-analysis of the deposited data

How the results depend on the processing

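With 2 libraries per line, unknown depth and lists of unequal length, counts of calls moved with most settings. Across all genes, those called higher and lower for H3K23su numbered 5060 and 525 without scaling, 367 and 238 with the stronger 50% of each list, 291 and 197 with 10 kb, 204 and 168 with 2 kb, 46 and 91 when peaks were counted, and 175 to 535 and 258 to 477 when a library was left out. For H3K27ac they numbered 4566 and 657 without scaling, 470 and 300 with 10 kb, 424 and 213 with 2 kb, 301 and 421 when peaks were counted, and 477 to 955 and 573 to 897 when a library was left out. Members called higher for H3K23su numbered 4 without scaling, 0 with the stronger 50%, 2 with 2 kb, 0 by peak number and 0 to 1 without a library, and members called lower numbered 0 without the filter, with the stronger 50%, 10 kb, 2 kb and by peak number, and 0 to 1 without a library. For H3K27ac, members called higher numbered 4 without scaling, 2 with the stronger 50%, 1 with 10 kb, 2 with 2 kb and 0 without any 1 library, and members called lower numbered 0 with the stronger 50%, 10 kb, 2 kb and by peak number, and 0 to 1 without a library. CD44 had too little cover to be fitted with the stronger 50%, 10 kb and 2 kb. For the difference between marks, genes called higher numbered 20 without the filter, 2 with the stronger 50%, 5 with 2 kb and 0 to 4 without a library, and genes called lower 3 without scaling, 20 without the filter, 24 with the stronger 50%, 2 with 10 kb, 3 with 2 kb and 0 to 2 without a library. The cause of these shifts was not tested.

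The replicate numbers were not shown to pair libraries, since the deviations of same-numbered libraries correlated at 0.00965 and −0.0142. With the replicate block, 1341 genes were called higher for H3K23su, members called higher rose to 2 with PROM1 (limma adjusted p = 0.0256), and the difference between marks had 0 calls in either direction.

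Directions of small changes turned. With 10 kb, the log2 difference for H3K23su was −0.0384 for RNF43, 0.12 for MYC and −0.0515 for SOX9. With 2 kb it was −0.0384 for RNF43, −0.00395 for ZNRF3 and −0.29 for SOX9, and for H3K27ac −0.10 for ZNRF3 and −0.0683 for SOX9. Without scaling it was 0.22 for MYC in H3K23su, and 0.0505 for ASCL2 and 0.0389 for RNF43 in H3K27ac. By peak number it was −0.27 for RNF43 and 0.0966 for MYC in H3K23su, and −0.22 for AXIN2, −0.0145 for ZNRF3, −0.16 for MYC and −0.16 for PROM1 in H3K27ac. With the stronger 50% it was 0.0576 for AXIN2, −0.12 for RNF43 and 0.23 for MYC in H3K23su, 0.00347 for RNF43 in H3K27ac, and 0.12 for RNF43, 0.22 for ZNRF3 and −0.21 for MYC between the marks. Leaving out a library gave −0.086 to 0.13 for RNF43 and −0.12 to 0.081 for MYC in H3K23su, −0.0193 to 0.0872 for AXIN2, −0.0647 to 0.085 for MYC and −0.0899 to 0.11 for PROM1 in H3K27ac, and −0.0708 to 0.13 for MYC between the marks.

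FR-only, Pa-only and shared regions near the members numbered 12, 4 and 40 for H3K23su and 14, 7 and 49 for H3K27ac with the stronger 50%, and 15, 8 and 35 and 10, 7 and 45 with 10 kb. Requiring 50% of a region to be covered left 30 and 46 shared. Without a library they ranged over 42 to 62, 19 to 46 and 82 to 96 for H3K23su, and 34 to 62, 18 to 46 and 100 to 106 for H3K27ac. Regions FR-only in both marks numbered 0 with the stronger 50%, 17 at 50% covered, 2 with 10 kb and 9 to 13 without a library, and Pa-only ones 1 with the stronger 50%, 5 with equal list lengths and 3 to 5 without a library. At the TSS, 0 members lacked H3K27ac when every transcript start was used, and 2 lacked H3K23su at 1 kb and with the stronger 50%, where 0 were Pa-only in either mark. FR-only members of H3K23su numbered 1 to 2 without a library. In the MYC interval, the H3K23su difference was −0.339 kb scaled and 1.10 to 3.26 kb without a library, with −1 to 3 peaks. The H3K27ac difference was 3.59 kb with the stronger 50%, 3.77 kb scaled and 6.11 to 7.91 kb without a library, and −3.5 peaks with the stronger 50%, −0.5 with equal list lengths and 0 to 1 without a library.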
